A study of Mus musculus with 3 samples.

Results

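The Notch genes examined were 10 of the 24421 genes in the count table. They were the receptor genes Notch1, Notch2, Notch3 and Notch4, the ligand genes Jag1, Jag2 and Dll1, and the target genes Hes1, Hey1 and Heyl, taken by their exact symbols. The set was chosen by gene family with the read counts of these 3 libraries already known, so its values are a description. They were measured by RNA sequencing of JB6 P+ cells, a mouse epidermal line in which tumour promoters induce transformation, with 1 library per group. The CDDO+TPA library was of cells that received 50 nM of CDDO, a synthetic oleanane triterpenoid, besides 10 ng/mL of the phorbol ester TPA. The TPA library was of cells that received the same TPA dose alone. Dosing was repeated every second day for 5 days in 1% serum. For the untreated control the sources used here give no medium, time or vehicle, so its differences from the treated libraries cannot be told apart from effects of these. The column taken as CDDO+TPA names CDDO only, and CDDO+TPA is the only sample whose labels name that compound.

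Notch proteins are transmembrane receptors that are activated by ligands of the Jagged and Delta families on a neighbouring cell. Ligand binding leads to cleavage outside the membrane by an ADAM protease and then within it by gamma-secretase, and the freed intracellular domain enters the nucleus and joins the DNA-binding protein RBPJ. Genes of the HES and HEY families, which encode basic helix-loop-helix repressors, are classical targets. In the epidermis Notch signalling is known for promoting differentiation, and Notch4 and the ligand gene Dll4 are best known from endothelial cells.

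The libraries held 7872089 reads in CDDO+TPA, 7813035 in TPA and 8190078 in control. Levels are given as CPM, a read count relative to the library total after TMM scaling. Each 95% interval is an exact counting interval, which leaves out the spread between cultures, and no p-value was computed because no group had a replicate. The size rule used below asks for a log2 fold change of 1 or more, up or down, together with a fold whose counting interval leaves out 1. The labelled skin epithelial type was not borne out by its markers, since of 12 keratinocyte markers 5 had 0 reads in all libraries, among them Krt5, Krt1 and Epcam. The summed level of that list was 8.87 CPM in the CDDO+TPA library, 10.7 in the TPA library and 14.9 in control. Most of it was Krt10, at 6.59, 9.16 and 13.0 CPM in the same order. The 10 fibroblast and mesenchymal markers summed to 2445, 1988 and 3043 CPM in the same libraries. Fn1 was the largest part, at 1391, 1087 and 1519 CPM, and Thy1 had 1, 0 and 0 reads. The cells are called by their line name here. Because these are bulk samples, fewer cells of a type and less RNA per cell cannot be told apart.

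The sequences at the starts of the genes that differed past the size rule are shown first, with that of Notch2, which did not, for comparison. The RefSeq promoter table of GRCm38.p6 held 7 of the 10 members, without Hes1, Hey1 and Heyl. The 7 members had 8 windows, as Dll1 had another start site 1109 bases from the start of its counted gene model. Each line gives 250 bases before the transcription start to 25 after it, 5′ to 3′ on the gene's own strand, and capitals mark every match to the motifs searched.
Notch4, chr17:34564045-34564319, plus strand: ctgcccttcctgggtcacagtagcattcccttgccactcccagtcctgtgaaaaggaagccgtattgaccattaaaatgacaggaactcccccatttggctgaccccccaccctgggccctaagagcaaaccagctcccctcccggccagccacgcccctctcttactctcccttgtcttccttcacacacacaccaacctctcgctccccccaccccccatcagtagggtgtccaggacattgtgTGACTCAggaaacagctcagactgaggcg
Notch1, chr2:26503798-26504072, minus strand: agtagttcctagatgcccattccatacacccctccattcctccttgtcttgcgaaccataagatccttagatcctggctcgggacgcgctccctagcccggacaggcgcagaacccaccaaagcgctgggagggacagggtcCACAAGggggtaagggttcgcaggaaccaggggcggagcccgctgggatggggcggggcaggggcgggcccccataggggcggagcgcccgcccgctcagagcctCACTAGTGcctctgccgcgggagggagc
Notch2, chr3:98013288-98013562, plus strand: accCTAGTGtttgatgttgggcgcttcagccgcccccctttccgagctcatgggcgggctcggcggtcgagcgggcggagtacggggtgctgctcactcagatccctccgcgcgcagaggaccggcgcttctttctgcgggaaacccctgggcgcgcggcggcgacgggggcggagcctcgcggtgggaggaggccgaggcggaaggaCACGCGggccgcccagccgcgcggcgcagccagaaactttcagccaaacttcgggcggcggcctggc
Jag2, chr12:112929471-112929745, minus strand: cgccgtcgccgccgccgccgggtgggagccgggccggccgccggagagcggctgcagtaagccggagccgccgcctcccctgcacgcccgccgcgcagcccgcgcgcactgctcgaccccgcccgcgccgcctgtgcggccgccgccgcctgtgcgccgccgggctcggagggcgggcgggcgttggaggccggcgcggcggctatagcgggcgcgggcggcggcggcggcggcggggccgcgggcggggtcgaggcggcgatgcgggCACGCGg
All motifs were searched on both strands, from 250 bases before to 50 after the start. For RBPJ they were the core TGGGAA, together with its longer form GTGGGAA. For the HES and HEY proteins they were the E-box CACGTG, the related box CACGCG, the box named CACGAG here and the N-box, which is CACNAG and overlaps the box before it. For AP-1 they were the TPA response element TGAGTCA, along with the looser TGANTCA that overlaps it, and for NRF2 the antioxidant response element core by name, which is TGACNNNGC in letters. Notch4 was the only one of the 7 members whose windows held the TPA response element, on the minus strand and so printed as TGACTCA, starting at position -4 from the start site. That motif was present in 5.2% of all 32851 promoter windows. The looser TGANTCA, present in 7.81% of windows, was held by Notch4 at the same bases and by Dll1 as TGATTCA at position -109. The N-box, present in 42.5% of all windows, was held by 4 members, which were Notch1, Notch2, Notch3 and Dll1. In Notch1 it starts at positions -108 and -3 on the printed strand and, read on the opposite strand, covers the bases from -1. The box CACGCG, present in 9.27%, was held by 4 members, which were Notch2, Jag1, Jag2 and Dll1. All matches in Dll1 lay in the window of its other start site. The box contains CG pairs (C followed by G), and the windows holding it had 63 in Jag2, 41 in Notch2, 22 in Jag1 and 15 in Dll1. The median over all windows was 7, so the share over all windows is not a like background for this box. No window of a member held TGGGAA, present in 25.6% of all windows, or the antioxidant response element core, present in 12.4%. A member was counted if any of its windows held a motif, while the shares are of windows. A match describes these letters and not a binding site, and a missing match concerns this window alone.

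Among the receptors, Notch1 and Notch4 were higher in the TPA library than in control, while Notch2, the most abundant receptor, differed little. Notch4 stayed far above control in the CDDO+TPA library and Notch1 stood between the other libraries. In TPA against control 2 of the 7 members that reached 1 CPM in a library were higher past the size rule, against 9.57% of all 13100 genes compared, and 0 were lower, against 5.91%. In CDDO+TPA against control 1 was higher, against 8.02% of genes, and 0 were lower, against 3.37%. In CDDO+TPA against TPA 0 were higher, against 7.87% of genes, and 1 was lower, against 7.78%. The members were chosen with results of these libraries known, so nothing is read from these shares. Dll1, Hey1 and Heyl did not reach 1 CPM in any library.

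Notch4 had 145 reads, or 18.4 CPM, in the CDDO+TPA library, 92 reads, or 11.6 CPM, in the TPA library and 4 reads, or 0.499 CPM, in control. It was near the detection limit in the control culture alone. The fold was 23.1 (95% counting interval 8.74 to 86.7) in TPA against control and 36.8 (14.1 to 137) in CDDO+TPA against control. By log2 fold change, 3.97 and 4.63, it ranked 43 and 11 from the top of the 13100 genes in these comparisons, which share the control library. In CDDO+TPA against TPA the fold was 1.59 (1.22 to 2.09), an interval above 1, while the log2 fold change of 0.66 was below the size rule. Notch4 entered the comparison through its treated libraries only. It lies in the major histocompatibility region of chromosome 17, from 34564295 to 34588543 on the plus strand of mm10, and its exons shared no base with another gene model. The next gene on the same strand, Gpsm3, starts 1263 bases beyond its end and had 5 reads in the CDDO+TPA library, 6 in the TPA library and 1 in control.

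Notch4 marks endothelial cells in tissues, and markers of these were few in reads. The 9 markers summed to 1.27 CPM in the CDDO+TPA library, 2.51 in the TPA library and 0.874 in control. The junction gene Cldn5 and the transcription factor gene Sox17 had 0 reads in all libraries. Pecam1, an endothelial adhesion molecule and the 1 marker of the 9 to reach 1 CPM, had 5 reads in the CDDO+TPA library, 13 in the TPA library and 2 in control, and was higher past the size rule in TPA against control, at a log2 fold change of 1.91. Notch4 alone held more CPM than the 9 markers together in both treated libraries. Among leukocyte markers, Ptprc and Cd3e had 0 reads in all libraries. Cd68, a lysosomal protein gene used as a macrophage marker, had 562 reads in the CDDO+TPA library, 416 in the TPA library and 177 in control. It was higher past the rule in CDDO+TPA against control, at a log2 fold change of 1.68, and in TPA against control, at 1.23. The part of these cell types in the Notch4 difference was not tested.

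Notch1, the receptor best known in epidermal differentiation, had 266 reads, or 33.7 CPM, in the CDDO+TPA library, 411 reads, or 51.6 CPM, in the TPA library and 135 reads, or 16.8 CPM, in control. The counting intervals of the 3 levels did not overlap, with TPA highest and control lowest. The fold was 3.06 (95% counting interval 2.52 to 3.75) in TPA against control, past the size rule, and 2.00 (1.62 to 2.48) in CDDO+TPA against control, where the log2 fold change of 0.99 lay just under the rule. With library totals alone or upper-quartile factors in place of TMM it was past the rule, at 1.02 and 1.03. In CDDO+TPA against TPA Notch1 was 1.53-fold lower (1.31 to 1.79), short of the rule.

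Notch2 had 1499 reads, or 189.9 CPM, in the CDDO+TPA library, 1494 reads, or 188 CPM, in the TPA library and 1719 reads, or 215 CPM, in control. The treated libraries overlapped each other and lay slightly below control. It was 1.14-fold lower (95% counting interval 1.07 to 1.23) in TPA against control, a difference larger than counting error and well short of the size rule. With 1.01-fold (0.942 to 1.09) in CDDO+TPA against TPA, no difference was detectable at this depth. Notch3, a receptor typical of vascular smooth muscle, had 100 reads in the CDDO+TPA library, 81 in the TPA library and 67 in control, or 12.7, 10.2 and 8.36 CPM. Neighbouring libraries in that order did not differ beyond counting error, and the ends of the order differed by 1.52-fold (1.10 to 2.10) in CDDO+TPA against control. The 7 smooth muscle and pericyte markers summed to 302, 342 and 255 CPM in CDDO+TPA, TPA and control. Most of it was Cspg4, at 248, 314 and 228 CPM, while Rgs5 and Kcnj8 had 0 reads in all libraries. The part of that cell type in the Notch3 levels was not tested.

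**Figure D1:**
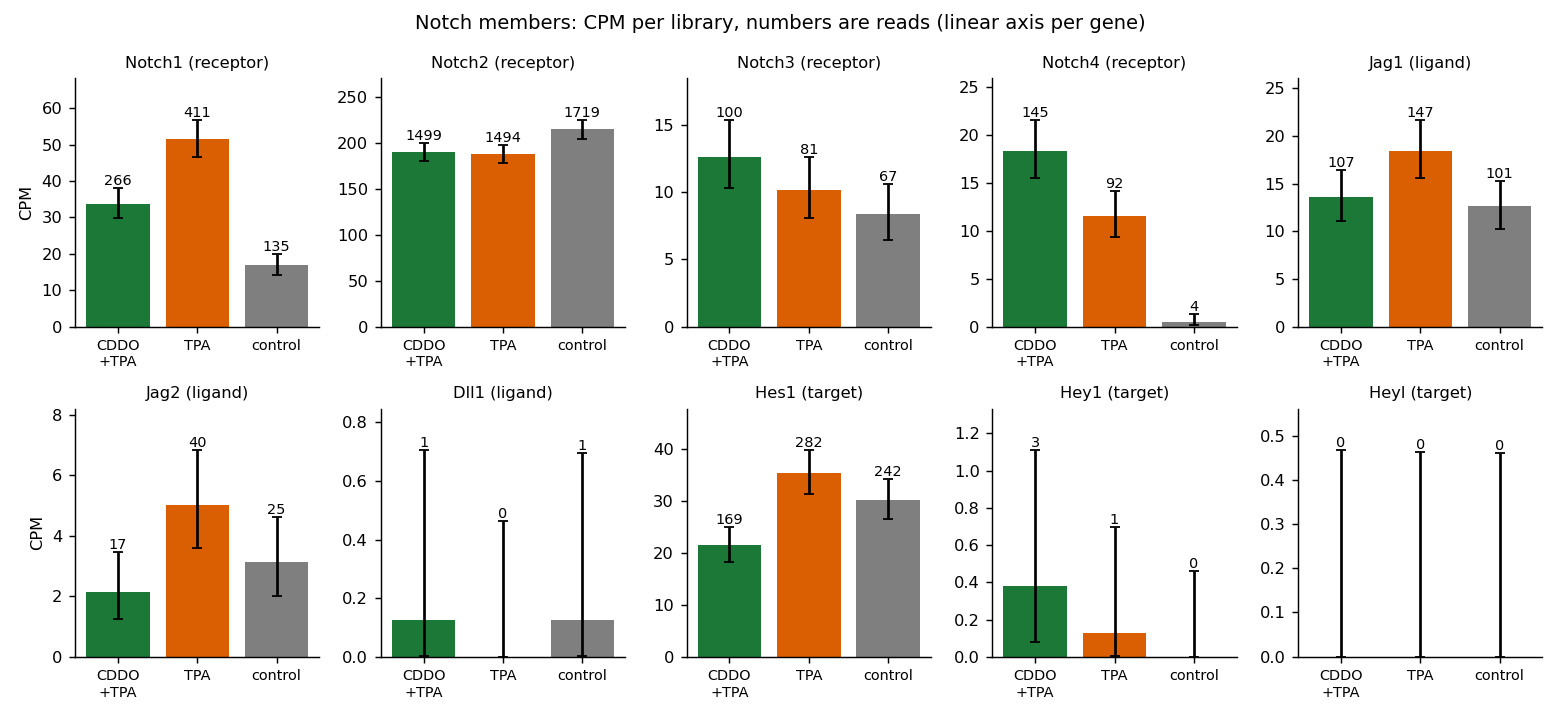
CPM of each of the 10 Notch genes in the CDDO+TPA, TPA and control libraries, on a linear axis per gene; bars are single libraries, lines are exact Poisson 95% counting intervals, and the numbers are reads. Notch4 stands at 145 and 92 reads in the CDDO+TPA and TPA libraries against 4 in control, Notch1 and Hes1 are highest in the TPA library, and Dll1, Hey1 and Heyl have 3 reads or fewer.

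Set per kilobase of exon model, which allows genes to be compared, Notch2 was the main receptor transcript in every library. It stood at 18.1 CPM per kb in the CDDO+TPA library, 17.9 in the TPA library and 20.4 in control. Its share of the summed receptor level was 69.5% in the CDDO+TPA library, 67.8% in the TPA library and 87.6% in control. Notch1 held 13.7% of that sum in the CDDO+TPA library, 20.7% in the TPA library and 7.61% in control. The share of Notch4 was 10.7% in the CDDO+TPA library, 6.65% in the TPA library and 0.324% in control. The summed level of the 4 receptors was close in all libraries, at 26.0, 26.3 and 23.3 CPM per kb in CDDO+TPA, TPA and control. Without Notch2 the sum was 7.93, 8.47 and 2.90 CPM per kb in the same order, so the receptors other than Notch2 were together higher in both treated libraries. These sums have no interval.

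**Figure D2:**
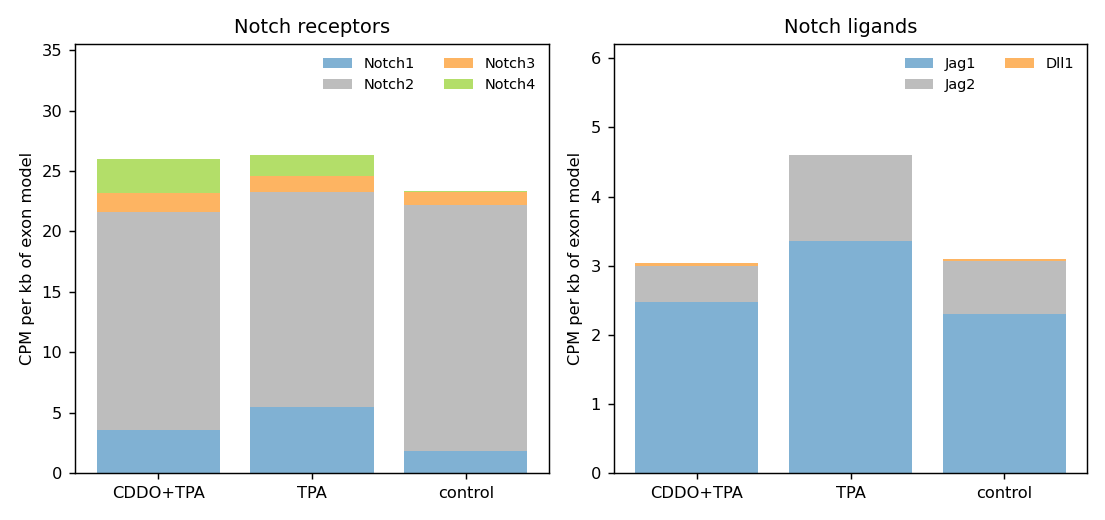
Stacked level per kilobase of exon model (CPM per kb, linear axis) of the receptor genes, left, and ligand genes, right, in the CDDO+TPA, TPA and control libraries. Notch2 makes up 69.5%, 67.8% and 87.6% of the receptor sum in CDDO+TPA, TPA and control, and Jag1 is the largest part of the ligand sum in every library.

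Both measured ligands were highest in the TPA library, at low levels. Jag1, the main ligand of the Jagged family here, had 107 reads, or 13.6 CPM, in the CDDO+TPA library, 147 reads, or 18.5 CPM, in the TPA library and 101 reads, or 12.6 CPM, in control. The TPA level was the highest, with a counting interval of 15.6 to 21.7 CPM. That interval overlapped the 11.1 to 16.4 CPM of CDDO+TPA and lay above the 10.3 to 15.3 CPM of control. CDDO+TPA and control overlapped each other. The fold was 1.46 (95% counting interval 1.13 to 1.91) in TPA against control, and Jag1 was 1.36-fold lower (1.05 to 1.76) in CDDO+TPA against TPA, both short of the size rule. In CDDO+TPA against control the fold was 1.08 (0.812 to 1.43).

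Jag2, the second Jagged ligand, had 17 reads, or 2.15 CPM, in the CDDO+TPA library, 40 reads, or 5.02 CPM, in the TPA library and 25 reads, or 3.12 CPM, in control. It was 2.33-fold lower (95% counting interval 1.29 to 4.39) in CDDO+TPA against TPA, the only member past the size rule in that comparison; its level is too low to enter where an average of 10 CPM is required. The interval of 0.953 to 2.77 around the fold of 1.61 in TPA against control included 1. Dll1, a Delta ligand, had 1 read in the CDDO+TPA library, 0 in the TPA library and 1 in control, so no level could be given. A count of 0 in the TPA library allows up to 0.377 CPM at a floor of 3 counts, while the two-sided Poisson interval drawn in the plot of levels reaches 0.463 CPM. Per kilobase, Jag1 held 81.3% of the summed level of the 3 ligands in the CDDO+TPA library, 73.1% in the TPA library and 74.0% in control.

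Of the targets, Hes1 alone was measured at a level that allows a comparison. Hes1, the repressor most often read as a sign of Notch activity, had 169 reads, or 21.4 CPM, in the CDDO+TPA library, 282 reads, or 35.4 CPM, in the TPA library and 242 reads, or 30.2 CPM, in control. The CDDO+TPA library was the lowest, and the other two overlapped within counting error. Hes1 was 1.65-fold lower (95% counting interval 1.36 to 2.01) in CDDO+TPA against TPA and 1.41-fold lower (1.15 to 1.73) in CDDO+TPA against control. The fold in TPA against control was 1.17 (0.984 to 1.40). None of these Hes1 differences reached the size rule. Notch4 was past it in both comparisons against control, and Notch1 in TPA against control only. Hey1, a HEY family repressor, had 3 reads in the CDDO+TPA library, 1 in the TPA library and 0 in control. Heyl, of the same family, had 0 reads in all libraries, which at the same floor of 3 counts allows up to 0.380 CPM in CDDO+TPA, 0.377 in TPA and 0.374 in control. The two-sided Poisson intervals in the plot of levels reach 0.467, 0.463 and 0.460 CPM in the same libraries.

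**Figure D3:**
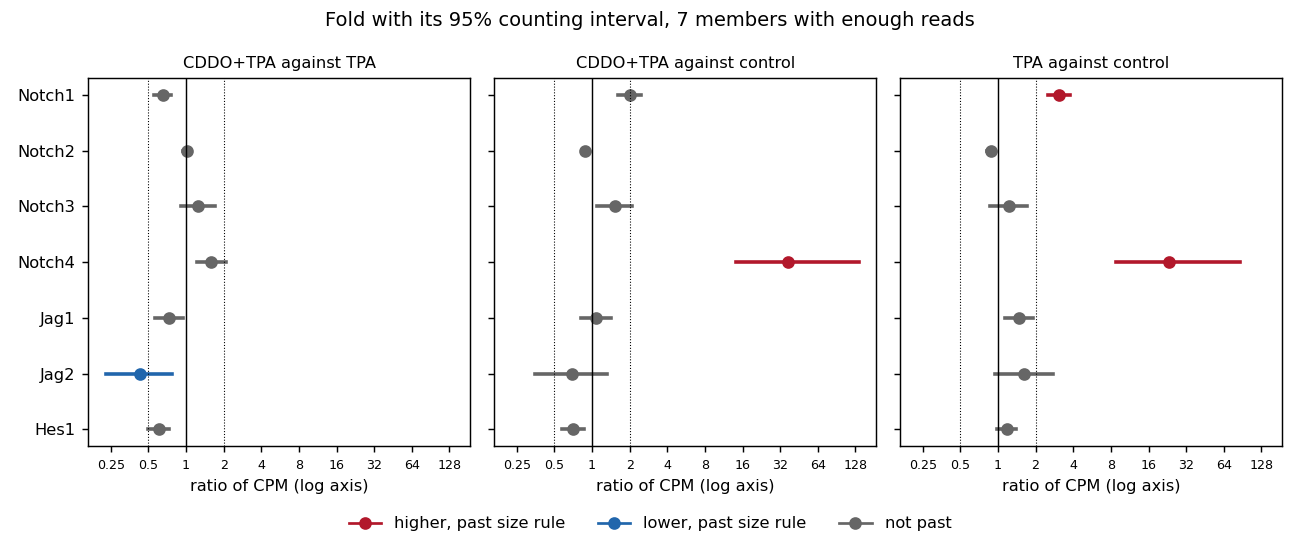
Ratio of CPM (log axis) with its 95% counting interval for the 7 Notch genes that reached 1 CPM in a library, in the 3 comparisons; the solid line is a ratio of 1 and the dotted lines are ratios of 0.5 and 2. Notch4 stands at 36.8 and 23.1 in CDDO+TPA and TPA against control, Notch1 at 3.06 in TPA against control, and Jag2 is the only gene past the size rule in CDDO+TPA against TPA.

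The rest of the pathway was described with a list of 94 other genes, of which 82 reached 1 CPM in a library. In TPA against control 5 were higher and 5 lower past the size rule, 12.2% in all, against 15.5% of all genes. In CDDO+TPA against TPA 4 were higher and 5 lower, 10.98% against 15.6%, and in CDDO+TPA against control 7 were higher and 1 lower, 9.76% against 11.4%. The median log2 fold changes of the list were 0.02, -0.02 and -0.03 in these comparisons, beside 0.00, 0.01 and -0.02 for all genes.

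Among the other ligands, 2 of 3 measured genes were higher in TPA against control, where 9.57% of all genes were, and 2 were lower in CDDO+TPA against TPA, where 7.78% were. These comparisons share the TPA library, and Dll3 reached 1 CPM in that library alone, so nothing is read from the counts. Dll4, a Delta ligand of vessels, had 16 reads, or 2.03 CPM, in the CDDO+TPA library, 43 reads, or 5.398 CPM, in the TPA library and 1 read, or 0.125 CPM, in control. The ratio was 43.3 (95% counting interval 7.36 to 1748) in TPA against control and 16.2 (2.52 to 681) in CDDO+TPA against control, and Dll4 was 2.66-fold lower (1.47 to 5.06) in CDDO+TPA against TPA. It shares 217 exonic bases with Gm14207 on the other strand, which had 1 read in CDDO+TPA, 5 in TPA and 1 in control. Dll3, a divergent Delta protein that inhibits Notch within the cell, had 2 reads in the CDDO+TPA library, 29 in the TPA library and 7 in control. It was 4.17-fold higher (1.79 to 11.3) in TPA against control and 14.4-fold lower (3.63 to 124) in CDDO+TPA against TPA. Dlk1, a non-canonical ligand gene, had 0 reads in all libraries.

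Receptor processing genes differed from control in both directions in the TPA library, and those past the size rule were lower. Adam10, the main protease of ligand-dependent Notch cleavage, had 249.5 CPM in the CDDO+TPA library, 135 in the TPA library and 287 in control. It was 2.13-fold lower (95% counting interval 1.98 to 2.29) in TPA against control. Adam17, a related sheddase, had 106 CPM in the CDDO+TPA library, 71.8 in the TPA library and 174 in control, and was 2.42-fold lower (2.19 to 2.67) in TPA against control. It shares 99 exonic bases with Iah1 on the other strand, which had 87 reads in CDDO+TPA, 67 in TPA and 76 in control. These were 2 of the 9 cleavage genes, against 5.91% of all genes lower in that comparison, and the median log2 fold change of the 9 was -0.51, beside 0.00 for all genes. Aph1b, Aph1c and Psenen lay the other way there, at 1.46-fold (1.15 to 1.85), 1.51-fold (0.732 to 3.21) and 1.13-fold (0.967 to 1.33). The lists were made with results of these data known, so nothing is read from their counts or medians. The gamma-secretase gene Psen2 had 20.5 CPM in the CDDO+TPA library, 10.0 in the TPA library and 19.2 in control. Its log2 fold change of 1.01 in CDDO+TPA against TPA lay just past the rule, and it was short of it at 0.99 with library totals alone, upper-quartile factors or a prior count of 5. Aph1b, a gamma-secretase subunit gene named here after its values were seen, lay just under the rule at 0.99 in CDDO+TPA against control, and was past it at 1.02 with library totals alone and 1.03 with upper-quartile factors. In the glycosylation list 2 of 9 measured genes were lower in TPA against control, against 5.91% of all genes, and 0 were past the rule in the other comparisons. Lfng, a Fringe glycosyltransferase that alters ligand preference, had 18 reads in the CDDO+TPA library, 11 in the TPA library and 27 in control, and its log2 fold change of -1.15 in TPA against control was short of the rule at -0.99 with a prior count of 5. Gxylt2, a xylosyltransferase of EGF repeats, had 55 reads in the CDDO+TPA library, 34 in the TPA library and 104 in control.

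**Figure D4:**
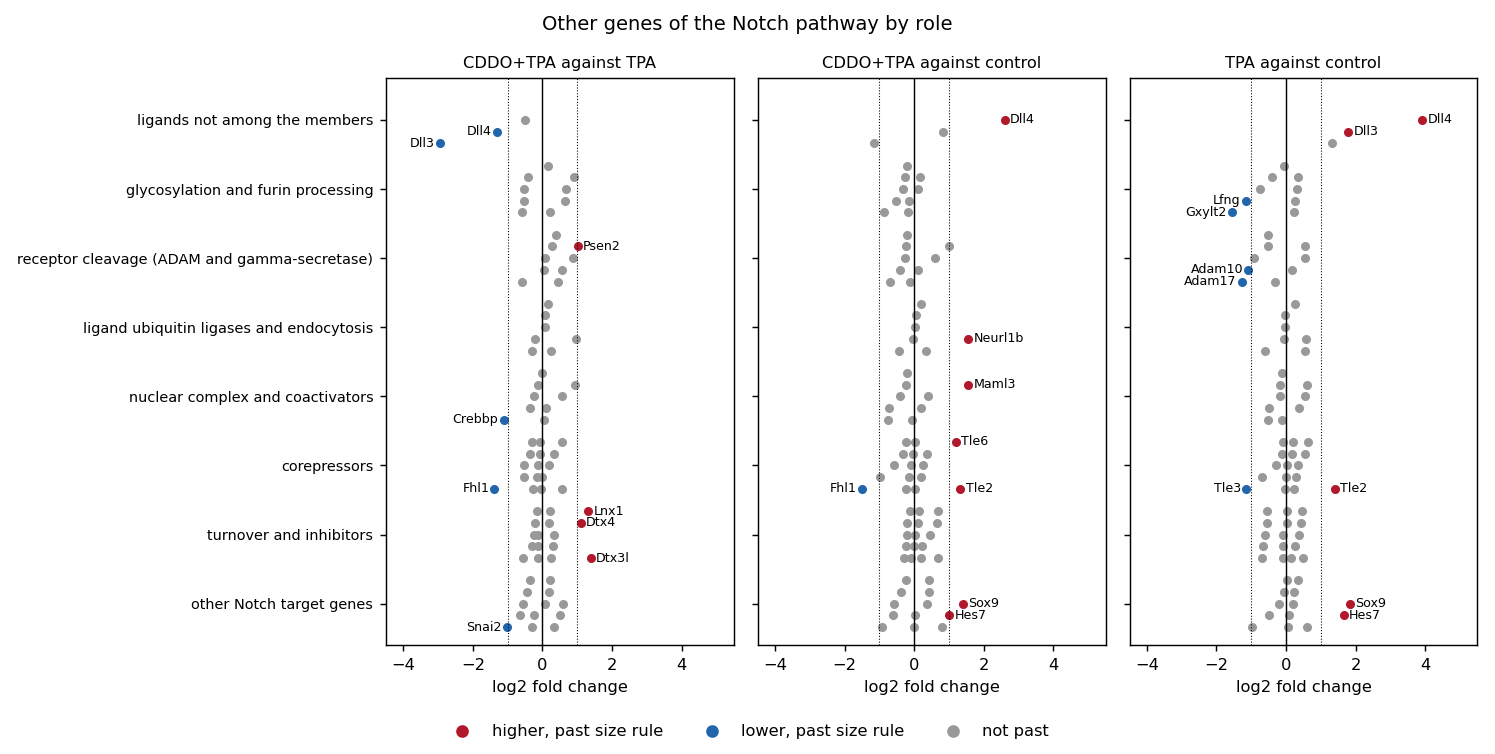
Log2 fold change of the 82 measured genes of the pathway list, by role, in CDDO+TPA against TPA, CDDO+TPA against control and TPA against control; each point is 1 gene, the dotted lines are -1 and 1, and genes past the size rule are named. Dll4 and Dll3 lie at 3.91 and 1.79 in TPA against control and at -1.31 and -2.95 in CDDO+TPA against TPA, and most other points lie between the dotted lines.

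Single regulators differed between the treated libraries or from control. Crebbp, a histone acetyltransferase and coactivator, had 122 CPM in the CDDO+TPA library, 264 in the TPA library and 203 in control, and was 2.17-fold lower (95% counting interval 2.01 to 2.35) in CDDO+TPA against TPA. Maml3, a Mastermind coactivator of the RBPJ complex, had 24.96 CPM in the CDDO+TPA library, 12.9 in the TPA library and 8.36 in control, and was 2.99-fold higher (2.25 to 4.0) in CDDO+TPA against control. Neurl1b, a ubiquitin ligase that acts on ligands, was 3.00-fold higher (2.16 to 4.24) in that comparison. Among the Groucho corepressors, which HES proteins recruit, Tle2 was 2.67-fold higher (2.06 to 3.49) and Tle3 2.21-fold lower (1.97 to 2.48) in TPA against control. Tle6, an atypical member of that family, was 2.31-fold higher (1.77 to 3.03) in CDDO+TPA against control. Fhl1, a LIM protein, had 6 reads in the CDDO+TPA library, 19 in the TPA library and 21 in control. In the turnover list 3 of 16 measured genes were higher in CDDO+TPA against TPA, against 7.87% of all genes, and 0 were lower, against 7.78%. They were the Deltex genes Dtx3l and Dtx4, at 2.65-fold (2.08 to 3.41) and 2.14-fold (1.90 to 2.43), and Lnx1, a ubiquitin ligase of the Notch antagonist NUMB, at 2.61-fold (1.57 to 4.49). Dtx3l shares 334 exonic bases with Parp9 and Lnx1 shares 21 with Fip1l1, each on the other strand.

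Of 13 other target genes measured, 2 were higher in TPA against control, where 9.57% of all genes were. A count of 2 higher was also found in CDDO+TPA against control, which shares the control library, against 8.02% of genes, and in CDDO+TPA against TPA 1 was lower, against 7.78%. Hes7, the HES gene of the segmentation clock, had 75 reads in the CDDO+TPA library, 120 in the TPA library and 37 in control, and was 3.26-fold higher (95% counting interval 2.24 to 4.85) in TPA against control. Its log2 fold change of 1.00 in CDDO+TPA against control was just past the rule, and with a prior count of 5 it was short of it, at 0.95. Sox9, a transcription factor gene of skin appendage progenitors, had 168 CPM in the CDDO+TPA library, 228 in the TPA library and 63.1 in control, and was 3.60-fold higher (3.26 to 3.99) in TPA against control. Snai2, a repressor of epithelial adhesion genes, had 68.7 CPM in the CDDO+TPA library, 139 in the TPA library and 131 in control. Hes2, Hey2 and the cytokine receptor gene Il2ra had 0 reads in all libraries. The genes Rbpj, Nrarp, Hes5 and Hes6 were named for their role after their values were seen. Rbpj, which encodes the DNA-binding partner of all Notch receptors, had 248 CPM in the CDDO+TPA library, 231 in the TPA library and 328 in control. The feedback inhibitor gene Nrarp had 0 reads in CDDO+TPA, 2 in TPA and 1 in control, and the classical target Hes5 had 0, 1 and 0. Of the HES and HEY genes looked up, Hes1, Hes6 and Hes7 had more than 3 reads in a library.

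The profiles over the 3 libraries were set against those of the 9890 genes with a mean of at least 10 CPM, by the Euclidean distance between log2 CPM values centred on their mean. Nearest to Notch4 were the cytokine gene Il24 at 0.86, Dlgap1, a scaffold protein gene, at 0.91 and Pdgfra, a PDGF receptor gene, at 0.93, and 0 genes lay within 0.5. The Notch4 profile rests on 4 reads in control. Its log2 fold change in TPA against control was 4.37 with a prior count of 0.5 and 3.43 with 5. Nothing is therefore read from the lack of genes within 0.5. Pdgfra had 76.9 CPM in the CDDO+TPA library, 34.9 in the TPA library and 5.24 in control. Nearest to Notch1 were Dcaf4, Arhgef40, a guanine nucleotide exchange factor gene, and Zfp9, at distances of 0.09, 0.13 and 0.14, with 186 genes within 0.5. For Jag2 they were Smim4, Zc3h12c and Mettl23, at 0.01, 0.02 and 0.04, with 862 genes within 0.5. With 3 libraries such likeness separates few genes, least so for Jag2.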

How the data were processed

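Total RNA of 3 libraries was sequenced, 1 per group. The deposited table holds unnormalized whole read counts for each gene symbol. Per the file headers, featureCounts 1.5.3 counted primary alignments on a UCSC mm10 annotation, with no option for strand or read pairs, from 7 alignment files, of which 3 columns are present, marked for duplicate removal. Duplicate removal can cap abundant genes; the members held at most 0.194 reads per exonic base. The submitters' processing notes also list HISAT2, Picard and DESeq, with no version.

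Library totals were scaled by TMM (edgeR 4.0.16, R 4.3.3), with factors of 1.00 for CDDO+TPA, 1.02 for TPA and 0.978 for control. Log2 CPM used a prior count of 2, which understates changes of genes with few reads. Folds are ratios of CPM without it, with exact conditional binomial 95% intervals; CPM intervals are exact Poisson. Both cover counting error only. A gene entered if any library held it at 1 CPM or more. The steps were tested on simulated data with counting error alone, and changes were planted only in genes averaging 10 CPM or more. That test does not bear on the spread between cultures or on calls of genes with few reads. Members, lists and motifs were chosen with earlier results of these data known. Named genes were the members, list genes past the size rule, list genes at 0 reads and the 3 nearest profiles of each member past the rule. Also named were cell type markers and genes beside or overlapping a named gene. Rbpj, Nrarp, Hes5, Hes6, Aph1b, Aph1c and Psenen were named outside these rules, after their values were seen. Alternatives were other scalings (one with DESeq2 1.42.0), prior counts and filters.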

Additional observations from a re-analysis of the deposited data

How the results depend on the processing

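Each count and each fold change of a member was recomputed with 3 other scalings, 2 other prior counts and 2 other filters on low counts. Of 126 counts, 113 stayed within 1.5 times, and of 144 fold changes of members, 142 kept their side of the size rule. The 2 filters were applied after scaling and cannot alter a fold change, so their entries among the 144 were fixed in advance. Only the other scalings and prior counts could move a fold change. The exceptions among the members were Notch1 in CDDO+TPA against control, at a log2 fold change of 1.02 with library totals alone and 1.03 with upper-quartile factors, so that 2 members were higher under each. Of all 13100 genes, 1101 and 1112 were higher in that comparison under these settings. Notch2 in CDDO+TPA against TPA, not past the rule, took the other sign under these settings, at -0.0060 and -0.0019. Where a gene had to average 10 CPM or more, Jag2 no longer entered and 0 members were lower in CDDO+TPA against TPA. Under that filter the pathway list had 2 higher and 3 lower in TPA against control, 2 lower in CDDO+TPA against TPA and 0 lower in CDDO+TPA against control. How many list genes entered under it is not given here, so nothing is read from these counts. Over all genes it left 9890 compared. Of these, 522 were higher and 227 lower in CDDO+TPA against TPA. The counts were 507 and 165 in CDDO+TPA against control, and 381 and 476 in TPA against control. No paired analysis was possible because each group had 1 library, and for the same reason no library could be left out. Depth limits Jag2, Dll1, Hey1 and Heyl most, with at most 40 reads in a library, and the control level of Notch4 and Dll4.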
